A study of Rattus norvegicus with 48 samples.

Results

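The genes described here encode the enzymes and the chaperone that modify, process and crosslink collagen: Lox, Loxl1, Loxl2, Loxl3, Plod1, Plod2, P4ha1, P4ha2, Serpinh1 and Pcolce. They were chosen by gene symbol, 10 of the 32883 genes listed in each tissue's table, and the rule used no measured value. All 10 were listed in both tissues and passed the filter on low counts in both. RNA was sequenced from the posterior eye, the tissue at the back of the eye outside the retina, and from the retina of 24 female Long-Evans rats, an outbred pigmented strain. The animals formed 4 groups of 6: aged rats (9 to 10 months, described by the submitters as middle-aged) with ovariectomy (OVX), aged rats with sham surgery, young rats (3 to 4 months) with OVX and young rats with sham surgery. OVX takes out the ovaries, the main source of oestrogen, and is used as a surgical model of menopause, whereas a sham operation spares them. Hormone levels and the time from surgery to dissection were not used here, and library numbers ran in the order of the groups, so that order of handling and group cannot be told apart.

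Fibrillar collagen is made in the endoplasmic reticulum, exported as procollagen, trimmed outside the cell and then crosslinked into fibres. Prolyl 4-hydroxylases, whose catalytic alpha subunits are encoded by P4ha1 and P4ha2, stabilise the triple helix, and lysyl hydroxylases, encoded by Plod1 and Plod2, prepare lysines for later crosslinking. Serpinh1 encodes HSP47, a chaperone that binds the procollagen triple helix, Pcolce encodes an enhancer of the proteinase that removes the C-terminal propeptide, and the lysyl oxidases Lox, Loxl1, Loxl2 and Loxl3 oxidise lysines of collagen and elastin so that fibres become crosslinked. In the eye these proteins act in the sclera, the optic nerve head, the cornea and the basement membranes, and common variants of LOXL1 in humans are associated with exfoliation syndrome, a disease of fibrillar deposits in the eye.

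The sequences before the start sites of 4 of the genes are shown because Serpinh1 and Pcolce varied together most closely of all pairs in both tissues, and because P4ha1 and Plod2 were among the 3 genes with lower counts in the posterior eye than in the retina. They come from RefSeq on build GRCr8, which is not the build of the count tables (Rnor_6.0), and run from 250 bases before the start of transcription to 50 bases after it, 5′ to 3′ on the gene's own strand. An entry matched 8 of the 10 symbols, and Lox and Loxl2 had none. Serpinh1 lies at chr1:163062927-163063226 on the minus strand, Pcolce at chr12:24720722-24721021 on the plus strand, P4ha1 at chr20:27844796-27845095 on the plus strand and Plod2 at chr8:101964068-101964367 on the plus strand. Capitals mark a heat shock element and a TATA box in Serpinh1 and hypoxia response cores in the other genes.
Serpinh1: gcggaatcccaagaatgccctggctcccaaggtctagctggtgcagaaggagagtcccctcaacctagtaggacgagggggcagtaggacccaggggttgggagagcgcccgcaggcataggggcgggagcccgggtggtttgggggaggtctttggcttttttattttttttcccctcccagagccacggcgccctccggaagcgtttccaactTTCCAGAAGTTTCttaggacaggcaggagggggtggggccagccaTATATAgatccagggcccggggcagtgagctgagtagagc
Pcolce: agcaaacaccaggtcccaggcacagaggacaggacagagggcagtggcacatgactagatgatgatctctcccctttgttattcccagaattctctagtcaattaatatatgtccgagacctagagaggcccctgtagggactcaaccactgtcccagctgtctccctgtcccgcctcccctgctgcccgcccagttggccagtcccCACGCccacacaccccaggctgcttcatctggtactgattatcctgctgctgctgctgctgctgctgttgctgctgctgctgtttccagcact
P4ha1: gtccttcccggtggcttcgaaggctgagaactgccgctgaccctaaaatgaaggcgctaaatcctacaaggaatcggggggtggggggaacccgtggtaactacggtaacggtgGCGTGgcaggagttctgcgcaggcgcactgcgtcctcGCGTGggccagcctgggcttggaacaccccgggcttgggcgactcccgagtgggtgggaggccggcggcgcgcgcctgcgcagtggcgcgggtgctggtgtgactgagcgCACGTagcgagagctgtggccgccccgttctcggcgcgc
Plod2: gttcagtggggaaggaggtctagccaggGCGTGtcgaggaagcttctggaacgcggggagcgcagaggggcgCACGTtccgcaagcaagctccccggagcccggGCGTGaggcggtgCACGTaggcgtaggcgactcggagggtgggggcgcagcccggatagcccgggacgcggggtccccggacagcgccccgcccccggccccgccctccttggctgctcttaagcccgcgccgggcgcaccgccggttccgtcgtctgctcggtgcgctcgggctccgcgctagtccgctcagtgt
Motifs were searched on both strands. The heat shock element, written TTCNNGAANNTTC (GAANNTTCNNGAA on the other strand), was matched 1 time each in the Serpinh1 and Plod2 windows, in Serpinh1 at position -35 from the start site, and in 0.798% of the 33469 promoters searched. A TATA box, TATAAA or TATATA, was matched 1 time in Serpinh1, past the annotated start site at position 10, and in 17.8% of all promoters. The hypoxia response core ACGTG was matched 2 times in Plod2, 2 times in P4ha2, 1 time in P4ha1 and not in the other 5 members, against 19.3% of all promoters with a match. The related core GCGTG was matched 2 times each in Plod2 and P4ha1, 3 times in P4ha2 and 1 time each in Pcolce, Plod1 and Loxl3, against 29.7% of all promoters. The palindromic oestrogen response element GGTCANNNTGACC was matched in none of the 8 member windows and in 0.0269% of all promoters. Its 5-letter unit GGTCA was matched 1 time each in Plod1 and P4ha1, against 40.5% of all promoters. The GC content of the windows was 73.7% for Plod2, 73.3% for P4ha2, 68.3% for P4ha1, 60.7% for Serpinh1 and 56.7% for Pcolce, against a median of 51.7% over all promoters. A match is a stretch of letters, and no binding was measured.

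Total counts ran between 11470945 and 22971367 in the posterior eye and between 12916146 and 30737547 in the retina. The summed level of 13 rod genes, the defining genes of the retina's main photoreceptor, lay between 90596 and 109769 CPM (read counts scaled to the size of the library) in the retina. Among posterior eyes it lay between 103.0 and 36020 CPM, a 350-fold range, so the posterior eye libraries differed widely in photoreceptor RNA. The posterior eye libraries also carried 8 fibroblast genes at a summed 3185 to 7350 CPM and 8 skeletal muscle genes at 8259 to 38366 CPM, and 10 genes of the retinal pigment epithelium at 1520 to 6919 CPM. Of the endothelial genes, Cldn5 was at 0 in all 24 posterior eyes and in all 24 retinas as well. Genes of sebaceous and meibomian glands reached 7512 CPM in 1 young sham posterior eye and 139 CPM in the lowest library. The young sham posterior eye of animal 1 had the lowest total of all 48 libraries, the lowest fibroblast level of the posterior eyes and, at 33257 CPM, more rod RNA than any other young sham posterior eye. In bulk tissue, fewer cells of a type and less RNA per cell cannot be told apart.

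All 10 genes differed between the posterior eye and the retina, a comparison over the same 24 animals. Of these, 7 were higher in the posterior eye and 3 were lower (edgeR quasi-likelihood test, Benjamini-Hochberg adjusted p between 3.02e-31 and 2.79e-06 over 17153 genes). Of all genes tested, 93% differed between the tissues, 47.8% being higher in the posterior eye and 45.2% lower, so a difference as such sets no member apart. The median log2 fold change of the members was 1.35, against 0.05 over all genes tested. Levels between tissues are given as CPM on a scale shared by both tissues, and levels within a tissue, in the paragraphs after these, on that tissue's own scale.

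Pcolce had the widest gap. It lay between 143 and 391 CPM in the posterior eyes and between 4.57 and 18.1 CPM in the retinas, so that the ranges did not overlap (235 ± 62.9 CPM in posterior eyes against 9.28 ± 3.14 CPM in retinas, SD, n = 24 each; log2 fold change 4.65 ± 0.14, SE). The ranges of Lox, Loxl1, Loxl3, P4ha2 and Serpinh1 did not overlap between the tissues either. The share of all genes without such overlap was not counted. Serpinh1 lay between 183 and 411 CPM in the posterior eyes and between 25.6 and 69.4 CPM in the retinas (log2 fold change 2.703 ± 0.09). The crosslinking enzymes were all higher in the posterior eye. Lox averaged 47.5 ± 14.3 CPM in the posterior eyes and 4.79 ± 0.837 CPM in the retinas (log2 fold change 3.28 ± 0.10), and every one of the 24 animals had more in its posterior eye. Loxl1 averaged 144 ± 31.1 CPM in the posterior eyes and 41.8 ± 9.52 CPM in the retinas (1.79 ± 0.09). Loxl3 (1.65 ± 0.08) and Loxl2 (1.04 ± 0.10) had smaller differences in the same direction. For Loxl2 the lowest animal's log2 ratio of posterior eye to retina was 0.15 and the highest 1.90.

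The hydroxylases were split. P4ha2 averaged 81.5 ± 8.93 CPM in the posterior eyes and 39.2 ± 8.12 CPM in the retinas (log2 fold change 1.06 ± 0.07), and was higher in the posterior eye of all 24 animals. Its paralog P4ha1 went the other way, at 48.4 ± 5.56 CPM in the posterior eyes and 59.3 ± 4.64 CPM in the retinas (-0.30 ± 0.04), and was lower in the posterior eye of 23 of 24 animals. Plod2 averaged 10.6 ± 2.39 CPM in the posterior eyes and 15.4 ± 3.84 CPM in the retinas (-0.53 ± 0.09; lower in 22 of 24 animals). Plod1 averaged 96.3 ± 11.6 CPM in the posterior eyes and 108 ± 6.74 CPM in the retinas (-0.17 ± 0.03; lower in 20 of 24). The ratio of the posterior eye mean to the retina mean was 0.689 for Plod2, 0.815 for P4ha1 and 0.890 for Plod1. All 10 were called in the same direction in a fit with a block for the animal, with other size factors, without the filter and with DESeq2. Fibroblast genes differed between the tissues as well, with 8 of 8 higher in the posterior eye and a median log2 fold change of 7.04. Their part in the values of the members was not tested here.

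**Figure D1:**
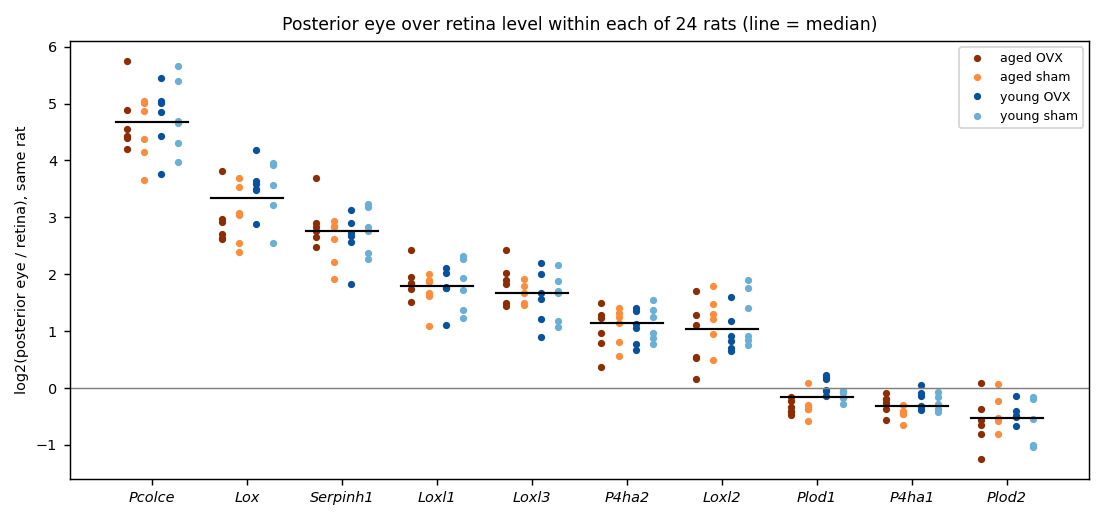
Log2 ratio of posterior eye to retina level (y axis, both tissues on 1 CPM scale) for each gene (x axis) in each of 24 rats; points are animals coloured by group and lines are medians over all animals. Pcolce (median 4.68), Lox (3.34) and Serpinh1 (2.76) lie highest, and Plod1, P4ha1 and Plod2 have medians below 0.

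The substrates and partners were measured alongside. Of 26 other collagen processing genes 24 were tested, of which 21 were higher in the posterior eye and 2, Adamts3 and Tll1, were lower. Those with the smallest p were PCOLCE2, a homologue of Pcolce (log2 fold change 4.32 ± 0.11), Bmp1, the procollagen C-proteinase itself (2.62 ± 0.07), Ppib, a proline isomerase of the collagen modifying complex (1.31 ± 0.04), Adamts2, the N-propeptide proteinase (3.45 ± 0.11), Tgm2, a transglutaminase (5.82 ± 0.19), and Fkbp10, a collagen chaperone (2.29 ± 0.08). Of 8 fibrillar collagen genes tested, 4 were higher in the posterior eye, led by Col1a1 (10.48 ± 0.27) and Col3a1 (9.24 ± 0.25). The other 4, Col2a1 (-1.98 ± 0.18), Col5a3, Col11a1 and Col11a2, were lower. All 4 elastic fibre genes were higher, among them Eln, encoding elastin (2.01 ± 0.06). Of 15 genes known to be induced by hypoxia inducible factor, 6 were higher, 7 were lower and 2 were not called, and the median log2 fold change of that list was -0.09.

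OVX was not followed by a called change in any of the 10 genes, in either tissue or at either age. For young posterior eyes 0.0061% of genes tested (1 of 16401) were called, and for aged posterior eyes 0%. In the retina, 0.0194% were called in young rats and 0.00646% in aged rats. For the aged posterior eye, 422 genes had an unadjusted p under 0.05 and DESeq2 called 0. With so few genes called in all, the members' count of 0 is near the background. For the members the intervals of 1.96 SE either side ran in the young posterior eye over log2 values of -0.46 to 0.66, which is a fold of 0.726 to 1.58. In the aged posterior eye they ran from -0.35 to 0.54, in the young retina from -0.39 to 0.76 and in the aged retina from -0.50 to 0.78, so OVX levels above 1.71 times or below 0.707 times the sham level lie outside all of these intervals.

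In the young posterior eye, 8 of the 10 estimates for OVX against sham were above 0, and their median was 0.19 on the log2 scale, against -0.01 over all genes tested (47.2% of which were above 0). P4ha2, P4ha1, Plod1 and Loxl3 had unadjusted p under 0.05, which 6.24% of all genes had. The members vary together across libraries, so these counts are not of separate observations. P4ha1 had 46.3, 50.8 and 55.9 CPM as the lowest, median and highest of the 6 young OVX eyes, against 39.97, 45.6 and 49.6 CPM in the 6 young sham eyes. All 6 young OVX eyes lay above the sham median, yet the ranges overlapped (log2 fold change 0.20 ± 0.08, adjusted p = 0.725). P4ha2 had 71.4, 86.3 and 96.1 CPM in young OVX eyes, against 65.1, 73.5 and 82.7 CPM in young sham eyes (0.20 ± 0.08, adjusted p = 0.718). For both genes the highest sham eyes lay within the OVX range. Plod1 had 95.6, 105 and 117 CPM in young OVX eyes, against 85.9, 91.4 and 102 CPM in young sham eyes (0.18 ± 0.09, adjusted p = 0.785). Loxl3 had 15.6, 21.5 and 24.9 CPM in young OVX eyes, against 13.4, 17.7 and 21.7 CPM in young sham eyes (0.25 ± 0.12, adjusted p = 0.791). The ranges overlapped again. Pcolce had the highest estimate, at 276 ± 74.7 CPM in young OVX eyes and 225 ± 50.2 CPM in young sham eyes (0.29 ± 0.19), a direction that turned with the fibroblast level as a covariate. Loxl2 had the lowest, at 14.0 ± 2.51 CPM in young OVX eyes and 16.0 ± 1.62 CPM in young sham eyes (-0.20 ± 0.13). Lox (-0.06 ± 0.20) and Loxl1 (0.02 ± 0.17) lay near 0, and Plod2 (0.26 ± 0.18) and Serpinh1 (0.17 ± 0.15) above it. Of 24 other collagen processing genes, 14 were above 0 and none was called.

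The level of fibroblast genes was higher in the same eyes. The summed level of the 8 fibroblast genes was 3482, 6039 and 7350 CPM as the lowest, median and highest of the young OVX posterior eyes, against 3185, 5089 and 5341 CPM of the young sham eyes, and none of the 8 genes was at 0 in any posterior eye library. All 8 were above 0 in OVX against sham, and none was called. Sebaceous gland genes were also unequal, at a summed 167, 195 and 565 CPM in the young OVX eyes against 154, 1352 and 7512 CPM in the young sham eyes. With the fibroblast level as a covariate, 5 of the 10 estimates were above 0 in place of 8, and the median of the members was -0.05 in place of 0.19. Pcolce turned to -0.14, Serpinh1 to -0.13 and Loxl1 to -0.32, while P4ha1 stayed at 0.16 and P4ha2 at 0.14. With the rod and sebaceous gland levels as covariates 6 of 10 were above 0, with a median of 0.08, and Pcolce was at 0.06. None of the 10 genes was called with or without these covariates.

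In the aged posterior eye 9 of 10 estimates for OVX against sham were above 0 (log2 median 0.08, and 0.00 over all genes), again not separate observations. P4ha1 again had an unadjusted p under 0.05, with 39.2, 47.8 and 52.7 CPM in aged OVX eyes against 35.5, 41.5 and 47.8 CPM in aged sham eyes (0.18 ± 0.08, adjusted p = 1.00). Over both ages together, a contrast added after the data were seen, P4ha1 was higher in OVX eyes by a log2 fold change of 0.19 ± 0.06 and Loxl3 by 0.23 ± 0.09. Neither passed the test (adjusted p = 0.665 and 0.752), and 0% of genes were called, while 938 of 16401 genes passed 0.05 unadjusted and DESeq2 called 29. No member was called for the interaction of OVX and age, where 0% of genes were called by edgeR, 487 had an unadjusted p under 0.05 and DESeq2 called 0. P4ha2 came nearest, with a log2 fold change of -0.02 ± 0.08 in aged rats and 0.20 ± 0.08 in young rats (difference -0.23 ± 0.11, adjusted p = 1.00).

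**Figure D2:**
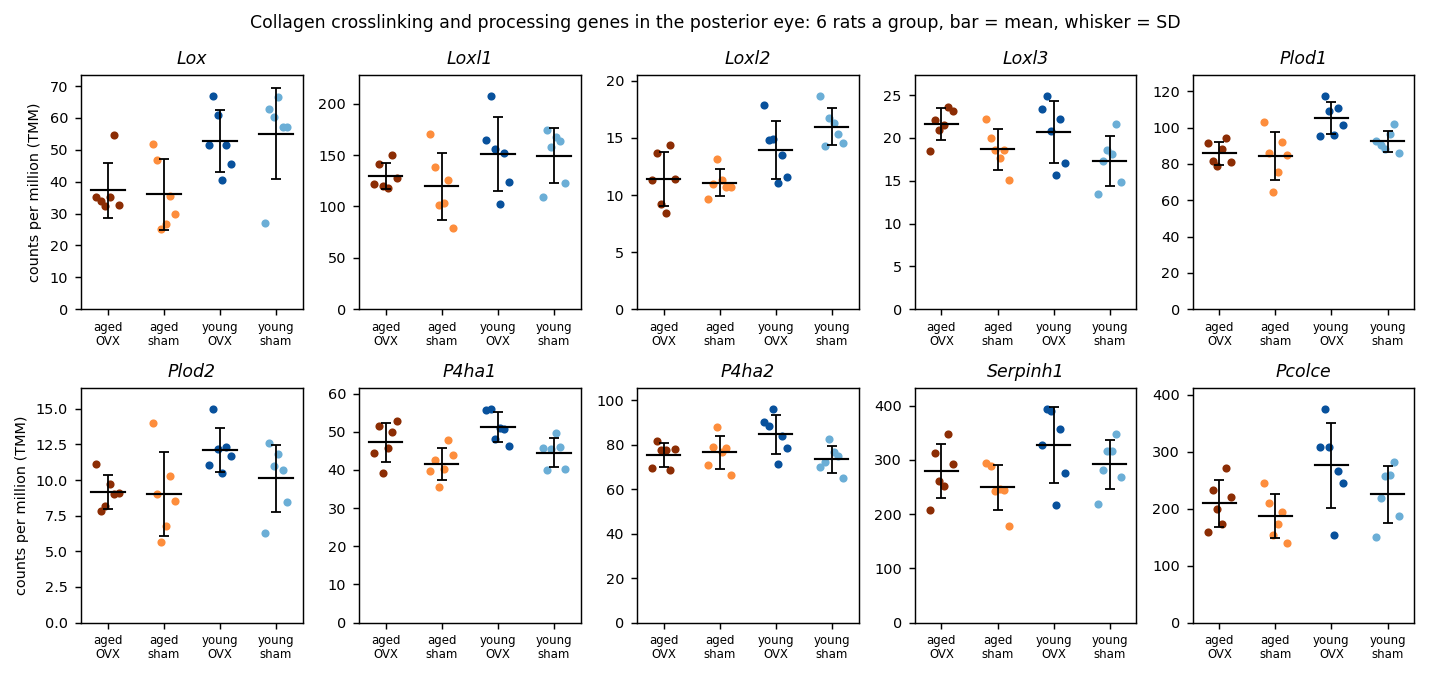
Level of each gene (y axis, CPM scaled within the tissue) in the 24 posterior eye libraries by group (x axis); points are rats, bars means and whiskers SD (n = 6 each). Lox and Loxl2 sit lower in the aged groups than in the young groups, and the young sham animal at 26.97 CPM of Lox lies apart from its group.

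Among young retinas 9 of 10 estimates for OVX were above 0 (median 0.10 on the log2 scale), and none had an unadjusted p under 0.05, which 11.7% of all genes had. P4ha1 had 59.7, 64.9 and 69.05 CPM in young OVX retinas against 53.9, 58.6 and 65.1 CPM in young sham retinas (0.13 ± 0.06, adjusted p = 0.437). Serpinh1 had 48.2, 54.2 and 72.8 CPM in young OVX retinas against 33.2, 46.5 and 70.4 CPM in young sham retinas (0.26 ± 0.18, adjusted p = 0.616). Within the young sham retinas, animals 1, 2 and 3 had 33.2, 34.03 and 37.6 CPM of Serpinh1, and animals 4, 5 and 6 had 70.4, 55.3 and 57.6 CPM. Animals 1, 2 and 3 were the lowest 3 of the group for 7 of the 10 genes (Loxl1, Loxl2, Loxl3, Plod2, P4ha2, Serpinh1 and Pcolce), and for Lox they were the highest 3. This split was seen in the same values, and the share of all genes with these lowest 3 animals was not counted. The members also vary together across libraries, so the 7 are not separate observations. Pcolce was divided along the same animals, at 6.38, 5.64 and 5.69 CPM in animals 1, 2 and 3 and at 14.0, 11.7 and 13.1 CPM in animals 4, 5 and 6. Summed fibroblast genes lay between 96.4 and 167 CPM in the young OVX retinas, against 69.02 to 133 CPM in the young sham retinas. Most of that sum came from Fmod (51.8 CPM on average over all retinas), Prelp (31.3 CPM) and Pdgfra (18.1 CPM). Dcn averaged 2.16 CPM and Lum 0.42 CPM, with Thbs4, Ogn and Tnmd lower still, so the sum is a poor measure of fibroblasts there. With the mean log2 CPM of the fibroblast genes as a covariate 8 of 10 estimates were above 0, with a median of 0.06. In aged rats 8 of 10 genes were above 0, with a median of 0.06. Loxl2 had the highest estimate, at 4.73, 6.36 and 11.1 CPM in aged OVX retinas against 2.97, 4.84 and 8.18 CPM in aged sham retinas (0.33 ± 0.23, adjusted p = 0.859). The lens genes moved with it, at a summed 4315, 26742 and 34109 CPM in aged OVX retinas against 3242, 8572 and 25017 CPM in aged sham retinas, with all 10 above 0 and none called. Their part in the Loxl2 difference was not tested.

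Genes of the retinal pigment epithelium, the cell layer behind the photoreceptors, also had unequal levels in OVX and sham retinas. The directions were opposite at the 2 ages, and none of the genes was called at either age. Their summed level was 582, 766 and 828 CPM in young OVX retinas against 560, 616 and 767 CPM in young sham retinas, with 9 of 10 genes above 0, a median log2 fold change of 0.69 and none called. In aged rats it was 509, 531 and 576 CPM in OVX retinas against 684, 695 and 1074 CPM in sham retinas, with no overlap, 9 of 10 genes below 0, a median of -0.85 and none called. The share of all genes or gene lists without overlap was not counted, so this separation has no background. Of the 10 pigment epithelium genes 3 were called for the interaction of OVX and age. None of the 10 was at 0 in any retina library. Rlbp1 averaged 449 CPM in the retinas, against 110 CPM for Ttr, 47.6 CPM for Rgr and 21.4 CPM for Rpe65. The summed level thus rests largely on Rlbp1, which is also listed among the genes of Muller glia, a cell type of the retina itself. The covariate is the mean log2 CPM of the genes and not their sum. With the level of these genes as a covariate the members' median for OVX was 0.22 in young retinas, in place of 0.10, and Loxl3 stood at 0.50 and Plod2 at 0.27, in place of 0.26 and 0.06. In aged retinas 4 of 10 members were then above 0, in place of 8, with a median of -0.05. Loxl2 was at 0.20 and Plod2 at 0.01 there, in place of 0.33 and 0.27, and no member was called.

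Over both ages, again a contrast added later, all 10 genes were above 0 in OVX retinas, with log2 fold changes between 0.02 (Loxl1) and 0.19 (Loxl2) and a median of 0.11, where 0.0517% of genes were called and no member was. The 10 genes vary together across libraries, so 10 of 10 is not 10 separate observations. For the interaction of OVX and age in the retina 0.0452% of genes were called and no member was. Serpinh1 had the largest difference between ages, with a log2 fold change of -0.11 ± 0.18 in aged rats and 0.26 ± 0.18 in young rats (difference -0.37 ± 0.26, adjusted p = 0.838; -0.65 when pigment epithelium genes were a covariate, not called). For the difference between the OVX effect in the posterior eye and that in the retina no member was called, with 0.0175% of genes called in young rats and 0% in aged rats (606 genes passed 0.05 unadjusted there, and DESeq2 called 4). The estimates closest to the threshold were those of Plod1 in young rats (0.17 ± 0.09, adjusted p = 0.888) and of P4ha1 in aged rats (0.17 ± 0.10, adjusted p = 1.00).

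**Figure D3:**
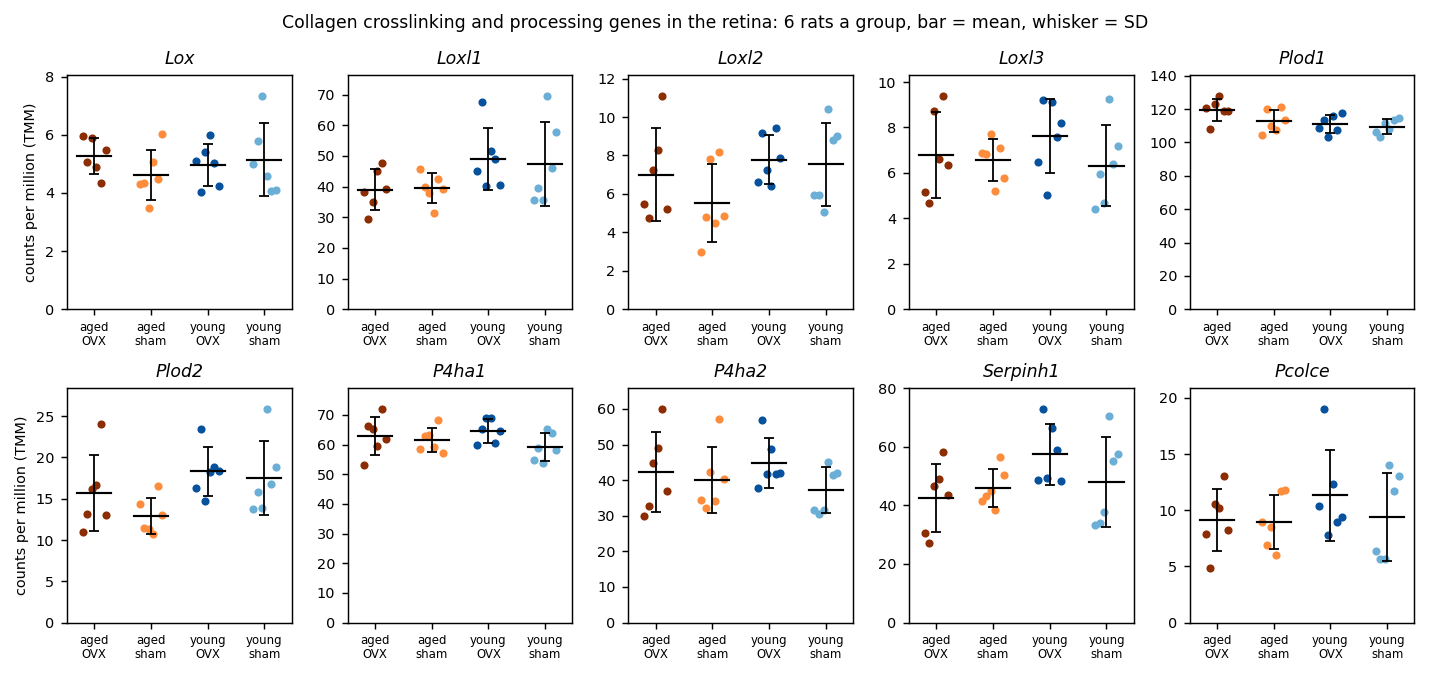
Level of each gene (y axis, CPM scaled within the tissue) in the 24 retina libraries by group (x axis); points are rats, bars means and whiskers SD (n = 6 each). Plod1 and P4ha1 vary little, while Serpinh1 and Pcolce split the young sham retinas into 3 low and 3 high animals.

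Age was compared within each surgery group. In the posterior eye, the crosslinking enzymes Lox and Loxl2 had lower levels in aged than in young rats, by estimates that did not pass the test over all genes. Between sham groups Loxl2 had 9.64, 10.9 and 13.2 CPM as the lowest, median and highest of the aged eyes, against 14.3, 15.8 and 18.7 CPM of the young eyes, so the groups did not overlap (log2 fold change -0.53 ± 0.13, adjusted p = 0.849). The other 9 members overlapped there, and edgeR called 0% of genes, while 481 (2.93%) passed 0.05 unadjusted and DESeq2 called 5. The share of all genes whose groups did not overlap was not counted, so no background stands beside this separation of Loxl2. Lox had 25.1, 32.7 and 51.9 CPM in aged sham eyes against 26.97, 58.7 and 66.5 CPM in young sham eyes (-0.62 ± 0.20, adjusted p = 1.00). The young sham animal with 26.97 CPM stood apart from the next lowest of its group, at 57.0 CPM.

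Between OVX groups 9 of 10 genes were below 0, with a median log2 fold change of -0.26 (-0.02 over all genes), and 6 had an unadjusted p under 0.05, as had 10.1% of all genes. Since the members vary together across libraries, neither count is one of separate observations. Plod1 had 78.9, 84.8 and 94.3 CPM in aged OVX eyes against 95.6, 105 and 117 CPM in young OVX eyes, with no overlap (-0.29 ± 0.09, adjusted p = 0.307). Here too the share of all genes without overlap was not counted. Lox had 32.3, 34.5 and 54.6 CPM in aged OVX eyes against 40.5, 51.5 and 66.9 CPM in young OVX eyes (-0.50 ± 0.20, adjusted p = 0.408). Loxl2 (-0.29 ± 0.13), Plod2 (-0.41 ± 0.18), P4ha2 (-0.17 ± 0.08) and Pcolce (-0.40 ± 0.19) were the other 4. Again edgeR called 0% of genes, while 1663 passed 0.05 unadjusted. DESeq2 called Plod1 in this comparison (-0.31, adjusted p = 0.0470), among 46 genes.

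Over both surgery groups, a contrast added after the data were seen, 7 of the 10 genes had an unadjusted p under 0.05 for aged against young, all of them lower in aged eyes, as had 8.9% of genes in either direction. The members vary together across libraries, so 7 of 10 is not 7 separate observations. The median of the members was -0.25 (-0.01 over all genes). No member was called, with 0.0488% of genes called (8 of 16401). Loxl2 came nearest (-0.41 ± 0.09, adjusted p = 0.162). Lox stood at -0.56 ± 0.14 (adjusted p = 0.214) and Plod1 at -0.21 ± 0.06 (adjusted p = 0.272). Pcolce was at -0.34 ± 0.13, Plod2 at -0.29 ± 0.13, Loxl1 at -0.27 ± 0.12 and Serpinh1 at -0.23 ± 0.11. Loxl3 alone was above 0 (0.09 ± 0.09). DESeq2 called Lox, Loxl2 and Plod1 here (adjusted p = 0.0331, 0.0181 and 0.0438) among 67 genes. Without young sham animal 1, edgeR called Lox (-0.62, adjusted p = 0.0494). Over the alternatives the adjusted p of Lox ran up to 0.376, of Loxl2 up to 0.294 and of Plod1 up to 0.453.

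Among the substrates of these enzymes, Col1a1 and Eln fell in the same comparison. Col1a1, which encodes the alpha 1 chain of type I collagen, averaged 1201 ± 530 CPM in aged OVX eyes, 1166 ± 363 CPM in aged sham eyes, 2395 ± 541 CPM in young OVX eyes and 2357 ± 382 CPM in young sham eyes (SD, n = 6 each). It fell in aged eyes by 1.01 ± 0.17 on the log2 scale over both surgeries (edgeR, adjusted p = 0.0175). Eln averaged 50.4 ± 7.68 CPM in aged OVX, 49.2 ± 7.77 CPM in aged sham, 70.7 ± 14.9 CPM in young OVX and 81.2 ± 11.1 CPM in young sham eyes and fell by 0.60 ± 0.10 (adjusted p = 0.0175). Without aged sham animal 17 the adjusted p of both was 0.0554 and without aged OVX animal 21 it was 0.0509, and without aged sham animal 14 that of Eln was 0.0521, with log2 fold changes between -1.13 and -0.95 for Col1a1 and between -0.64 and -0.56 for Eln over all 24 animals left out in turn. All 8 fibrillar collagen genes tested were below 0, 7 of them with an unadjusted p under 0.05 and 1 called, and all 4 elastic fibre genes were below 0, 1 of them called. Of 24 other collagen processing genes tested, 20 were below 0 and none was called. The summed fibroblast genes lay at 4258, 5054 and 6295 CPM in aged OVX, 3705, 4865 and 5345 CPM in aged sham, 3482, 6039 and 7350 CPM in young OVX and 3185, 5089 and 5341 CPM in young sham eyes, with all 8 genes below 0 in aged eyes, a median of -0.14 and none called. With the fibroblast level as a covariate the median of the members over both surgeries was -0.14 in place of -0.25. Pcolce was then at -0.14, Serpinh1 at -0.10, Loxl1 at -0.13 and Plod2 at -0.18, while Lox was at -0.40, Loxl2 at -0.38 and Plod1 at -0.19. Between OVX groups Lox was at -0.19, Plod2 at -0.20 and Pcolce at -0.02 with this covariate, and Serpinh1 (0.02) and Loxl1 (0.08) turned above 0. No member was called in these fits. Lens genes were lower in aged eyes as well, with all 10 below 0 and 1 called. The part of the lens genes in the values of the members was not tested. With rod and sebaceous gland levels as covariates Loxl2 was called (-0.46, adjusted p = 0.0361), among 52 genes.

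**Figure D4:**
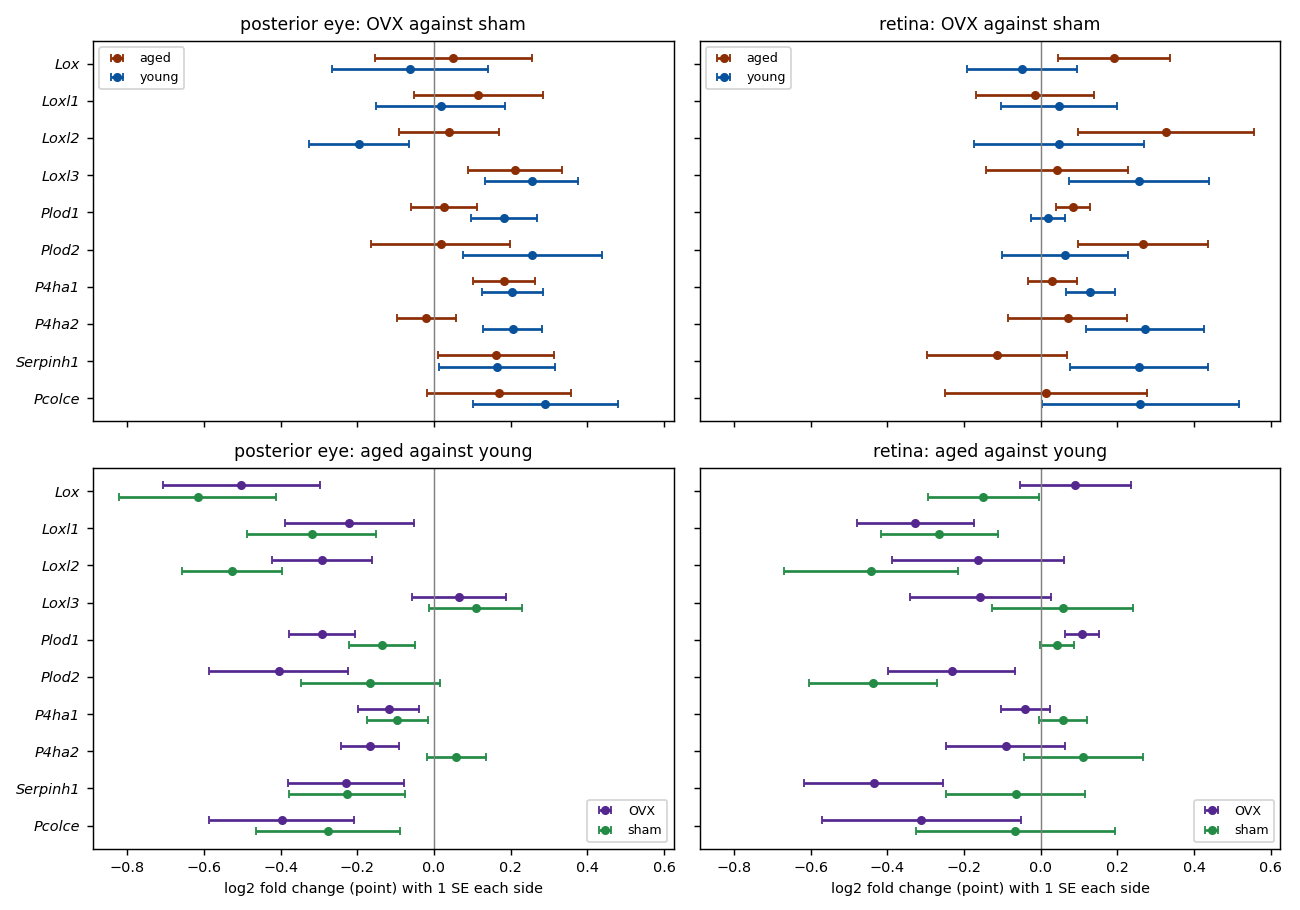
Log2 fold change of each gene (x axis; points, with whiskers of 1 SE each side) for OVX against sham in aged and young rats (upper panels) and for aged against young in OVX and sham rats (lower panels), in the posterior eye (left) and the retina (right). In the posterior eye the age estimates between sham groups lie farthest from 0 for Lox (-0.62) and Loxl2 (-0.53). Between OVX groups they do so for Lox (-0.50), Plod2 (-0.41) and Pcolce (-0.40), with Loxl2 at -0.29.

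In the retina no member was called for age. Between sham groups Plod2 had 10.7, 12.2 and 16.5 CPM in aged retinas against 13.8, 16.3 and 25.9 CPM in young retinas (log2 fold change -0.44 ± 0.17, adjusted p = 0.333). It was the only member with an unadjusted p under 0.05, which 10.7% of all genes had, and 0.0388% of genes were called. Between OVX groups Serpinh1 had 27.3, 45.1 and 58.1 CPM in aged retinas against 48.2, 54.2 and 72.8 CPM in young retinas (-0.44 ± 0.18, adjusted p = 0.457). Loxl1 was at -0.33 ± 0.15 and Plod1 at 0.11 ± 0.04, and 0.0711% of genes were called there, no member among them. Over both surgeries, Plod2 (-0.33 ± 0.12, adjusted p = 0.186) and Loxl1 (-0.30 ± 0.11, adjusted p = 0.205) were lower and Plod1 (0.07 ± 0.03, adjusted p = 0.295) higher in aged retinas, none of them called, with 0.736% of genes called. Lox, with the lowest age estimate in the posterior eye, was at -0.03 ± 0.10 in the retina. Among the other collagen processing genes Adamts2 rose in aged retinas, at 6.77 ± 1.81 CPM in aged OVX, 7.03 ± 2.47 CPM in aged sham, 4.50 ± 0.718 CPM in young OVX and 3.70 ± 1.37 CPM in young sham retinas (0.76 ± 0.16, adjusted p = 0.0256). It was not called without aged sham animal 16 (0.69, adjusted p = 0.0502) or with the fibroblast level as a covariate (0.81, adjusted p = 0.0994). In the posterior eye its levels were 49.2 ± 14.5 CPM in aged OVX, 45.05 ± 6.63 CPM in aged sham, 60.2 ± 13.7 CPM in young OVX and 57.7 ± 6.98 CPM in young sham eyes, and it was not called there. Lens genes in the retina libraries were lower in aged rats, with a summed median of 26742 CPM in aged OVX, 8572 CPM in aged sham, 32243 CPM in young OVX and 34510 CPM in young sham retinas, and all 10 of them were below 0. Among the members Loxl2 and Plod2 correlated with the mean log2 CPM of the lens genes. For Loxl2 this was a Pearson's r of 0.584 and a Spearman's rho of 0.547 (n = 24, permutation test adjusted p = 0.0240 and 0.0368; r = 0.551 without the 2 farthest libraries and 0.436 within groups). For Plod2 it was lower in r and higher in rho (Pearson's r = 0.554, Spearman's rho = 0.590, n = 24, permutation test adjusted p = 0.0344 and 0.0255; r = 0.425 without the 2 farthest libraries and 0.344 within groups). The part of the lens genes in these values was not tested. With pigment epithelium genes as a covariate, the age estimate of Plod2 was -0.28 between sham groups and -0.55 between OVX groups, and that of Serpinh1 between OVX groups was -0.63, none of them called.

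Across libraries most members varied together. The closest pair was Serpinh1 and Pcolce, the chaperone and the propeptide enhancer. Over the posterior eyes their log2 CPM had a Pearson's r of 0.947 and a Spearman's rho of 0.967 over 24 libraries (permutation test with 100000 permutations, adjusted p = 7.5e-05 and 0.000112 over 90 pairs, at the smallest value they can give), with r = 0.940 without the 2 farthest libraries and 0.935 after group means were removed. In the retina they had an r of 0.886 and a rho of 0.883 (adjusted p = 7.5e-05 and 0.000112), with r = 0.901 after group means were removed. The median r over the 45 pairs of a tissue was 0.500 for posterior eyes and 0.576 for retinas. The median r over pairs of other genes in the same libraries was not computed, so no background stands beside these medians. Loxl1 was close to Serpinh1 and Pcolce in the posterior eye (r = 0.892, rho = 0.861 with Pcolce and r = 0.860, rho = 0.835 with Serpinh1). Lox went with them in the posterior eye (r = 0.828, rho = 0.845 with Loxl1 and r = 0.775, rho = 0.743 with Pcolce). In the retina, however, its r with the other 9 members lay between -0.448 and -0.02, none of them past the adjusted threshold for r. The rho of Lox there did pass with Loxl2 (-0.477, permutation test adjusted p = 0.0341) and with Loxl3 (-0.467, adjusted p = 0.0371).

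**Figure D5:**
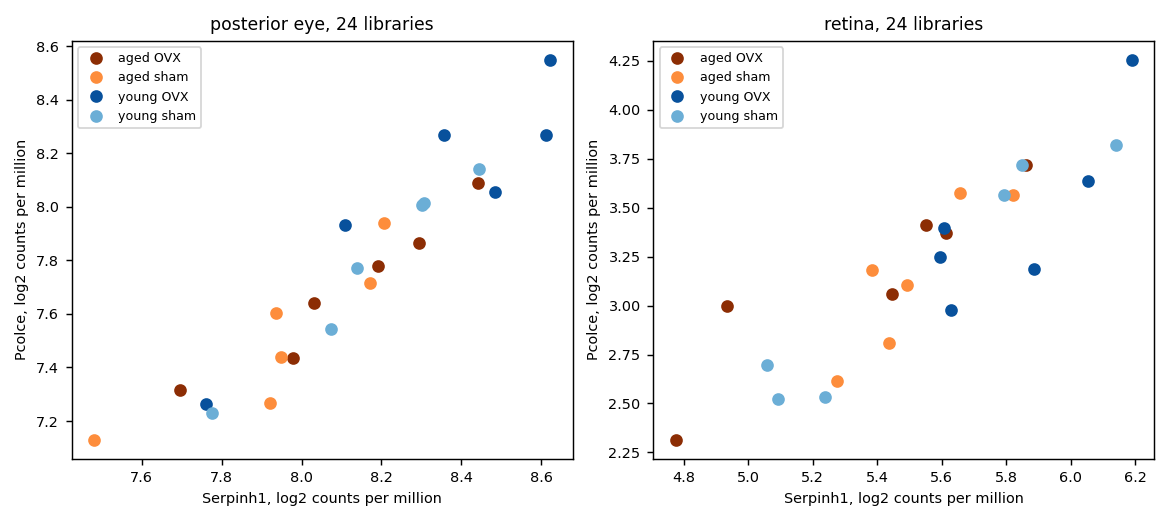
Pcolce (y axis) against Serpinh1 (x axis), both in log2 CPM, in 24 posterior eye libraries (left) and 24 retina libraries (right), with points coloured by group. The points of all 4 groups lie along 1 line in each tissue.

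Among posterior eyes the same genes varied with the level of fibroblast genes. The mean log2 CPM of the 8 fibroblast genes had an r of 0.910 (rho = 0.943) with Pcolce, 0.815 (rho = 0.883) with Serpinh1, 0.749 (rho = 0.782) with Loxl1 and 0.714 (rho = 0.665) with Loxl3 over 24 libraries (permutation test, adjusted p at most 0.0009 for r and 0.0069 for rho over 60 relations). After group means were removed r was 0.925 for Pcolce, 0.820 for Serpinh1, 0.819 for Loxl1 and 0.811 for Loxl3, and without the 2 farthest libraries 0.911, 0.798, 0.720 and 0.553 for the same genes. Lox (r = 0.669), Plod2 (0.638) and P4ha2 (0.559) passed as well, so that r passed for 7 of the 10 genes. The share of all genes that would pass with the fibroblast level was not counted, so this count has no background. For Loxl2 r was 0.214 (rho = 0.395, permutation test adjusted p = 0.510 and 0.206). Without the 2 farthest libraries it was 0.512, and after group means were removed 0.24. In the retina, where Lum was at 0 in 3 libraries and Tnmd in 21, no member's r with fibroblast genes passed (r = 0.321, rho = 0.383 for Pcolce, adjusted p = 0.320 and 0.219), though the rho of Loxl1 (0.569, adjusted p = 0.0289) and Plod2 (0.523, adjusted p = 0.0477) did. With rod genes in the posterior eye the r of the members lay between -0.495 for P4ha2 and 0.257 for Plod1, and none passed.

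Outside the members, the genes whose log2 CPM followed each member most closely over 24 libraries were ranked by Pearson's r. For posterior eyes Mxra8 was nearest to Pcolce (r = 0.959), Serpinh1 (0.944) and Loxl1 (0.923), out of 14318 genes compared. Col6a1, Sparc and Fbn2 were nearest to Lox (0.866 to 0.870), and Col3a1, Eln and Mmp2 nearest to Loxl2 (0.845 to 0.869). P4ha1 had no gene above 0.778 (Zfp449). In the retina, out of 13517 genes, Col9a1, Gja1 and Best2 were nearest to Serpinh1 (0.931 to 0.933), Timp1, an inhibitor of matrix proteases, to Pcolce (0.946), Sdc2 to Plod2 (0.948) and Npc2, Timp2 and Anxa2 to P4ha2 (0.909 to 0.914). No gene was among the 3 nearest to the same member in both tissues. The libraries share preparation and tissue makeup, so these values describe likeness across these libraries and carry no test.

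Counts of genes that overlap others on the genome can be shared, since the protocol describes no strand marking. In the RefSeq table for GRCr8, Loxl3 overlaps Htra2 by 43 bases, Lox overlaps the pseudogene Rps3a-ps12 and P4ha1 the pseudogene Snrpd2l and a small nuclear RNA gene, and the other 7 members overlap no listed gene. The overlap in the annotation used for counting was not examined here.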

How the data were processed

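RNA of 48 libraries, a posterior eye and a retina from each of 24 rats, was made into cDNA with SMART-Seq v4 from 10 ng of total RNA and sequenced in pairs on an Illumina instrument, per the labels' protocols. The submitters' processing notes name STAR 2.7.3a, HTSeq, DESeq2 and the build Rnor_6.0. The deposited tables, 1 for each tissue, hold raw counts per gene, and the strand setting of the counting is not given in the sources used here. Groups came from the sample titles.

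Genes were filtered by edgeR's filterByExpr, scaled by TMM and tested with edgeR 4.0.16 (quasi-likelihood F test, R 4.3.3), with 1 mean per group and all 24 libraries of a tissue sharing the estimate of spread, which left 16401 genes for posterior eyes and 15481 for retinas. Tissues were compared in 1 fit over 48 libraries (17153 genes). P-values were adjusted by Benjamini-Hochberg over all genes tested, and a gene is called at an adjusted p under 0.05. SE is the log2 fold change over the square root of F, and intervals are 1.96 SE either side (95%). CPM was computed from the counts with TMM library sizes, with a prior count of 2 on the log2 scale. Biological variation between rats, as edgeR's common coefficient, came to 33.4% for posterior eyes and 12% for retinas. Correlations used 100000 permutations in Python 3.11.15. The fit was also run on simulated data, with changes larger than the members' OVX and age estimates. That run does not show how well effects of the members' size would be called.

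Both tissues of a rat carry the same number in the labels, so the animal pairs them. The correlation of their deviations from group means ran from -0.0597 to 0.245, with a median of 0.0592, over 24 animals. Alternatives were RLE size factors, no filter, DESeq2 1.42.0, a fit of only the compared groups, marker levels as covariates, a block for the animal between tissues and each animal left out in turn. The contrasts averaged over ages or surgeries, the fibroblast covariate and the joint rod and sebaceous covariate were chosen after seeing the data. The members and gene lists were chosen with earlier results of these data known. All 10 members are named, other list genes where called (up to 6 by p in a contrast) and the 3 most alike genes per member, from which the text takes examples. Date strings stood in place of 25 gene symbols among the posterior eye counts, and those genes were left out of the joint fit.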

Additional observations from a re-analysis of the deposited data

Results flagged for a closer look

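Of 80 groups of 6 libraries (10 genes, 4 groups, 2 tissues) 2 held a library that stood apart by Dixon's test, with a gap over range above its 95% critical value, and chance gives about 1 in 20. Both concern Lox in the posterior eye. Aged OVX animal 23 had 54.6 CPM, with the nearest of its group at 35.2 CPM (gap over range 0.869), and its summed fibroblast level of 6295 CPM was the highest of the aged OVX eyes. Young sham animal 1 had 26.97 CPM, with the nearest of its group at 57.0 CPM (gap over range 0.762). The library of animal 1 also had the lowest total count (11470945), the lowest summed fibroblast level (3185 CPM) and the highest rod level of its group (33257 CPM). The part of these levels in the Lox values was not tested.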

How the results depend on the processing

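No member was called in any comparison of OVX under any alternative run. For age in the posterior eye, DESeq2 called 1 member between OVX groups and 3 over both surgeries, where the rod and sebaceous gland covariates gave 1 and leaving out 1 animal gave 0 to 1. The cause was not tested. In the paired fit between tissues, the animal as a block called 10 members, as the fit without it did, and changed no other member's call. It moved the count over all genes for the OVX effect between tissues in young rats to 0, against 3. Of 516 values with 1 library left out and 230 under other alternatives, for members with an unadjusted p under 0.05 or the tissue difference, 0 changed sign. Of the other member values, 116 of 1884 and 45 of 740 changed sign, with log2 estimates of up to 0.11 turned by leaving out 1 library and of up to 0.29 (Pcolce for OVX in young posterior eyes, with the fibroblast covariate) by the other alternatives.

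Counts over all genes depended more on the tool. In the posterior eye DESeq2 called 11 genes for OVX in young rats (edgeR 1), 29 over both ages (0), 5 for age between sham groups (0), 46 between OVX groups (0) and 67 over both surgeries (8). In the retina it called 62 for OVX in young rats (3), 9 for OVX in aged rats (1), 67 for age between sham groups (6), 68 between OVX groups (11), 22 for the interaction (7), 40 for OVX over both ages (8) and 256 for age over both surgeries (114), and 6 (3) and 4 (0) for the OVX effect between tissues. The fibroblast covariate gave 137 posterior eye genes for age between OVX groups and 16 retinal genes for age over both surgeries, which no filter put at 69. Leaving out 1 animal gave 1 to 11 genes for age over both surgeries in the posterior eye and 67 to 163 in the retina. In the retina it gave 0 to 4 genes for OVX in young rats, 0 to 1 in aged rats, 0 to 10 over both ages, 0 to 24 for age between sham groups (0 without young sham animal 4, 24 without aged sham animal 13), 2 to 16 between OVX groups and 4 to 13 for the interaction, and in the posterior eye 1 to 2 for OVX in young rats, 0 to 5 over both ages and 0 to 1 for age between sham groups.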
